A study of Mus musculus with 12 samples.

Results

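Motile cilia genes encode the parts of the beating cilium that covers ependymal cells, the epithelium lining the brain ventricles and the cerebral aqueduct, together with the transcription factors that switch those parts on. The set examined here was a list of 47 gene symbols, of which 45 were matched in the count table of 24421 genes. Dnah3 and Dnah12 were not analysed here. Each of the 45 had 10 or more counts over the 12 libraries and passed the filter on low counts, so no member was lost to low expression. They were grouped by role into regulators (3 genes), outer dynein arm (7), inner dynein arm (7), dynein assembly and light chain (2), radial spoke (3), central apparatus (3), molecular ruler and nexin link (4), doublet microtubule (5) and other cilium genes (11).

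RNA was sequenced from dorsal raphe (DR) tissue of 12 mice on a C57BL/6 x 129 background, 8 to 16 weeks old when experiments began. The 4 controls were Sert Cre/+; Stat3 fl/+ littermates (animals 3 and 13 female, 4 and 11 male), and the 8 STAT3 KO mice were Sert Cre/+; Stat3 fl/fl (animals 5, 7, 10 and 16 female, 6, 8, 14 and 15 male). Both genotypes therefore carried Cre under the serotonin transporter gene and at least 1 floxed Stat3 allele, and recombination was directed to cells that express that transporter, mainly serotonergic neurons. The dissected midbrain lay just ventral to the aqueduct, a channel that ependymal cells line.

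A motile cilium is built on a ring of doublet microtubules around a central pair. Outer and inner dynein arms on each doublet are the motors, radial spokes pass signals between the central apparatus and the arms, and nexin links hold neighbouring doublets together. FOXJ1 and the RFX factors are known as the regulators of this gene programme, and ependymal cells use the resulting cilia to move cerebrospinal fluid.

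Libraries held 24379588 to 29645210 counts on genes, and a floor of 3 counts corresponded to 0.101 to 0.123 CPM, counts rescaled to a common library total. Library pairs differed 5.24 to 29.1 times more than counting noise over 13400 genes, so none was a copy of another. Stat3, the targeted gene, was at 65.9 ± 1.26 CPM in controls (SD, n = 4) and 66.6 ± 2.90 CPM in STAT3 KO (SD, n = 8). Its log2 difference of -0.01 (95% interval -0.09 to 0.08) comes from whole-gene counts over all cells in the tissue, which do not separate the floxed exons, so it does not check the genotype labels. In control 4, a list of 10 forebrain excitatory neuron genes summed to 942 CPM, whereas controls 3, 11 and 13 lay at 188 to 236 and the STAT3 KO libraries at 214 to 338 CPM. STAT3 KO 8 and 16 had Ttr, a choroid plexus transport protein, at 213 and 204 CPM, whereas the other 10 libraries had 0.110 to 3.64 CPM.

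The ependymal label was checked against 6 marker genes, of which Foxj1, Tmem212, Ccdc153 and Dynlrb2 are members themselves, so that only Rarres2 and Mia, which encode secreted proteins, lie outside the set. All 6 were above the floor in every library. Rarres2 was at 9.42, 4.201, 14.9 and 4.80 CPM in controls 3, 4, 11 and 13, and at 7.78 to 20.3 CPM in STAT3 KO. Fewer ependymal cells in a tissue piece and less RNA per ependymal cell cannot be told apart in these bulk samples. How much aqueduct wall each piece held is not given in the sources used here.

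The promoters of these genes were read first, because 3 of the members are the factors thought to bind them. RefSeq promoter windows of 300 bases (250 before to 50 after the annotated start, assembly GRCm38.p6) were matched for 39 of the 45 members. Foxj1, Rsph1, Rsph4a, Armc4, Tppp3 and Stk33 had no entry. The core GTTGCC of the X-box, the element bound by RFX factors, was searched on both strands and lay in the windows of 22 of 39 members (56.4%), compared with 2406 of 17224 listed genes (13.97%) and 29 of 66 motile cilia genes outside the set (43.9%). In 19 members a core lay before the start site. The core nearest the start lay 1 to 195 bases before it (median 21), and in 15 of the 19 it lay within 100 bases.

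Windows of 60 bases are shown for 9 members that recur in the results, each on the strand of its gene, 5′ to 3′, with the core in capitals as GTTGCC or as its reverse complement GGCAAC. None of the windows overlapped a GENCODE vM21 exon of the genes checked, those in the count table with a single annotated gene per name. The windows of Dnah7b, Mns1 and Tekt1 lay between the annotated ends of their own genes, outside these exons. They cover Rfx2 (chr17:56831092-56831151, minus strand), Dnah7a (chr1:53706952-53707011, minus), Dnah7b (chr1:46066663-46066722, plus), Dnah10 (chr5:124725025-124725084, plus), Hydin (chr8:110266917-110266976, plus), Spag16 (chr1:69826836-69826895, plus), Tekt1 (chr11:72361883-72361942, minus), Mns1 (chr9:72438430-72438489, plus) and Ccdc153 (chr9:44240498-44240557, plus).
Rfx2: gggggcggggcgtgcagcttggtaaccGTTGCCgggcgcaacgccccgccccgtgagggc
Dnah7a: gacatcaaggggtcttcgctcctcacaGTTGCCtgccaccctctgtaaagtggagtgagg
Dnah7b: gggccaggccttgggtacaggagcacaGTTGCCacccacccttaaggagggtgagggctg
Dnah10: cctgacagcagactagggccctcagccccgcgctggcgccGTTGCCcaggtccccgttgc
Hydin: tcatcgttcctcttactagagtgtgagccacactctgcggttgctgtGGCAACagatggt
Spag16: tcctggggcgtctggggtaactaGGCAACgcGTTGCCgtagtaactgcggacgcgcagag
Tekt1: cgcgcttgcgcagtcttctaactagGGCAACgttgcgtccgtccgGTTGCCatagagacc
Mns1: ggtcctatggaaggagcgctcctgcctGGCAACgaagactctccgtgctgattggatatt
Ccdc153: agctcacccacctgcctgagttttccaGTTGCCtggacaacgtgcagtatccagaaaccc

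Spag16 and Tekt1 each had 2 cores within the window shown. A closely spaced pair of cores facing each other was searched as GTTNCC, then 0 to 3 bases, then GGNAAC, a pattern that can contain the core. It was found in 1 of 39 members, Iqca (2.56%), in 0.964% of all listed genes and in 4 of 66 motile cilia genes outside the set (6.06%). Pairs with a looser match, as at the core of the Hydin window shown (gttgctgtGGCAAC), were not counted. The forkhead sequence TGTTTAC, searched on both strands, was in 1 of 39 members, Ak7 (2.56%), in 3.51% of all listed genes and in 8 of 66 motile cilia genes outside the set (12.1%). Its letters cannot match the X-box core. The letters describe these windows alone and no binding was measured in this series.

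Levels were compared between genes as CPM per kilobase of annotated exon, averaged over the 12 libraries. Tppp3, a tubulin polymerisation promoting protein that is also expressed outside cilia, was highest at 61.2 CPM per kilobase. Foxj1 followed at 10.3, Rsph9, a radial spoke head protein, at 7.12 and Tmem212, a membrane protein used as an ependymal marker, at 6.91. Levels per length were low for most dynein heavy chains, which had some of the longest transcripts. They ran from 0.1301 for Dnah7a, the lowest of all members, to 2.03 for Dnah1, which lay above the median member. The median member had 1.28 CPM per kilobase, and ranking by the longest transcript in place of all exons left Tppp3 highest and Dnah7a lowest. The order below Tppp3 changed: Rsph9, at 11.8, then passed Foxj1 (10.3), and Ccdc153, at 5.51 by all exons and 10.3 by the longest transcript, passed Tmem212.

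The members varied together from animal to animal. Their summed level was 363, 279, 454 and 301 CPM in controls 3, 4, 11 and 13, a mean of 349 ± 78.3 CPM (SD, n = 4). In STAT3 KO it had a lowest value of 365 (animal 8), a highest value of 572 (animal 10) and a mean of 476 ± 75.8 CPM (SD, n = 8). Control 11 lay inside the STAT3 KO range and STAT3 KO 8, 15 and 16 lay between controls 3 and 11, so the groups overlapped. Tppp3 supplied 96.5 to 132 CPM of each sum. Without it the mean of the remaining 44 was 244 ± 77.1 CPM for controls and 359 ± 77.3 CPM for STAT3 KO.

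**Figure D1:**
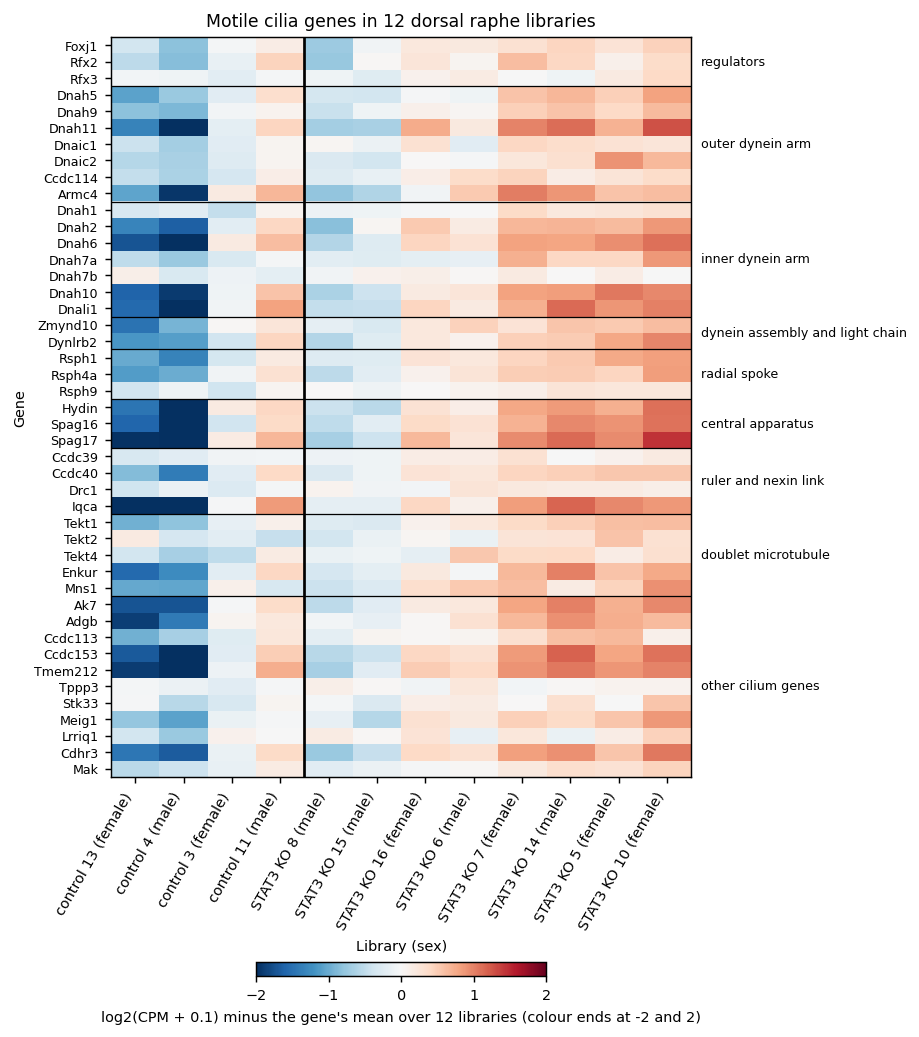
Heat map of the 45 motile cilia genes (rows, grouped by role) in the 12 libraries (columns, sorted within each genotype by the median member). Colour gives log2(CPM + 0.1) minus the gene's mean over 12 libraries. Controls 4 and 13 were blue across nearly all rows, control 11 resembled the STAT3 KO libraries, and STAT3 KO 8 and 15, below the gene mean for most rows, were light blue.

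Control 4 had the lowest value of all 12 libraries for 28 of the 45 members and control 13 for 12. STAT3 KO 10 had the highest value for 22 members, and no control was highest for any. Counted another way, control 4 was among the 4 lowest libraries for all 45 members and control 13 for 40, compared with 21 for control 3 and 3 for control 11. STAT3 KO 8 was among the 4 lowest for 37 members and STAT3 KO 15 for 27. Their median deviations from the gene means were -0.29 and -0.22 on edgeR's log2 CPM scale with a prior count of 2. These were nearer to that of control 3 (-0.15) than to those of controls 4 (-0.92) and 13 (-0.97). The median Pearson correlation of log2 levels over 12 libraries was 0.85 across the 990 pairs of members (Spearman 0.85), and 0.78 after removing genotype means. Over pairs drawn from all genes tested the median was about 0 (-0.0024). These values describe 12 shared libraries, and the members are not independent of each other. Rfx3, Dnah7b, Tekt2 and Tppp3 moved least with the rest, with median correlations to the other members of 0.46, 0.40, 0.46 and 0.25.

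The question behind the genotype comparison was whether loss of STAT3 from serotonergic cells was accompanied by altered expression in the DR. Every one of the 45 members had a higher fitted level in STAT3 KO than in controls, with log2 fold changes from 0.13 (Tppp3) to 1.17 (Spag16) and a median of 0.65, whereas 49.4% of all 15453 genes tested were above 0 and their median was 0.00 (-0.0011). None passed the test: edgeR's quasi-likelihood test with Benjamini-Hochberg adjustment over all genes called 0 of 45 members (background 0% of genes called, smallest adjusted p of a member 0.615). DESeq2 also called 0 members, and 6 genes in all. At an unadjusted edgeR p under 0.05, 30 members were higher in STAT3 KO, against 3.61% of all genes, and 0 were lower, against 4.05%. In either direction 7.66% of all genes had such a p. The exact two-sided permutation test over the 495 splits into 4 and 8 animals gave p under 0.05 with a higher STAT3 KO mean for 28 members, against 3.37% of all genes. For no member did every STAT3 KO value lie above every control value (background 0.362% of genes).

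Because the members vary together, these counts are not 45 separate observations. They turned on the low controls: without control 4 the median log2 fold change was 0.47 and 11 members had an unadjusted p under 0.05 (against 4.04% of all genes higher with such a p in that fit). Without control 13 the values were 0.50 and 14 (against 2.497%), and without control 11 they were 0.91 and 42 (against 4.58%). All 45 stayed higher in STAT3 KO each time. Without control 11 the log2 fold changes of Dnah5, Dynlrb2, Ccdc153 and Tmem212 were 0.91, 1.22, 1.69 and 1.75, and without control 4 that of Tmem212 was 0.64. Dnah7b had 0.10 without control 4 and 0.24 without control 13. Control 4 was also the library with the high forebrain sum, whose part in the result was not tested. Without STAT3 KO 8 and 16, the libraries with high Ttr, the median was 0.75 and 37 members had an unadjusted p under 0.05 (against 5.48% of all genes).

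**Figure D2:**
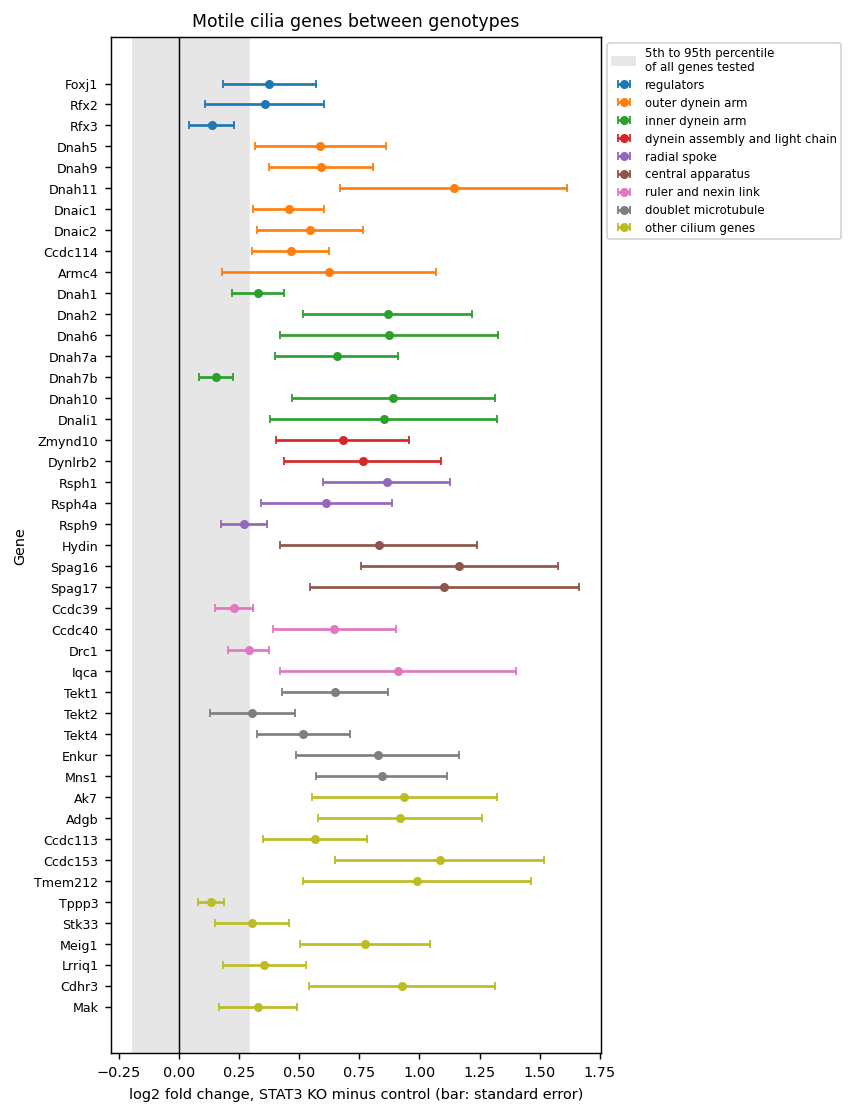
Log2 fold change of each motile cilia gene, STAT3 KO minus control, from the fit over 4 control and 8 STAT3 KO libraries, with bars for the standard error and colours for roles. All 45 points lie right of 0, and 40 lie right of the grey band that holds the central part of all genes tested, from the 5th percentile (-0.19) to the 95th (0.29).

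The 3 regulators had smaller fold changes than most members, with a median of 0.36 on the log2 scale. Foxj1, the forkhead factor of the motile cilium programme, was at 25.5, 14.7, 28.9 and 20.3 CPM in controls 3, 4, 11 and 13, and at 15.8 to 36.1 CPM in STAT3 KO (median 30.9). STAT3 KO 8 lay near the lowest control, and the 7 others lay above the control mean. The log2 fold change of Foxj1 was 0.38 ± 0.19 (SE; 95% interval -0.03 to 0.79), with an unadjusted edgeR p of 0.0694 and an adjusted p of 0.682. It was 0.22 without control 4. Rfx2 and Rfx3, winged-helix factors that bind the X-box, had log2 fold changes of 0.36 ± 0.25 and 0.14 ± 0.09 (SE). That of Rfx2 was 0.18 without control 4 and 0.67 without control 11, and that of Rfx3 was 0.08 without STAT3 KO 10. Rfx3, which is also expressed in cells without motile cilia, was at 17.1 to 19.3 CPM in controls and 16.9 to 26.1 CPM in STAT3 KO. None of the 3 regulators had an unadjusted p under 0.05.

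Among the 7 outer dynein arm genes the median log2 fold change was 0.59 and 6 had an unadjusted p under 0.05, in this and the following classes against the 3.61% of all genes that were higher with such a p. Dnah5, Dnah9 and Dnah11 encode motor heavy chains. Dnah11 was at 3.46, 0.575, 5.38 and 1.52 CPM in controls 3, 4, 11 and 13 and at 2.45 to 9.77 CPM in STAT3 KO (median 6.56), a log2 fold change of 1.14 ± 0.47 (SE) with an adjusted edgeR p of 0.615. Dnah9 ran from 5.06 to 10.03 CPM in controls and from 6.99 to 14.8 CPM in STAT3 KO, and Dnah5 from 3.57 to 9.65 and from 5.87 to 13.4 CPM. All 3 heavy chains thus showed the same 2 low controls with very different amplitude. Dnaic1, an intermediate chain that joins the heavy chains, had 4.86, 3.52, 5.95 and 4.22 CPM in controls and a range of 4.86 to 7.61 CPM in STAT3 KO. Its log2 fold change was 0.46 ± 0.15 (SE; exact permutation p = 0.0222, edgeR adjusted p = 0.615), and all 8 STAT3 KO values lay above the control mean. Dnaic2, also an intermediate chain, and Ccdc114, a docking complex subunit, had log2 fold changes of 0.55 and 0.46. Armc4, needed for docking of the arms, was the member of this class with an unadjusted p above 0.05 (0.181) and had 8 counts in control 4.

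The 7 inner dynein arm genes had a median log2 fold change of 0.85, and 4 had an unadjusted p under 0.05 (against 3.61% of all genes). Dnah1, an inner arm heavy chain, stood at 18.8, 22.4, 27.3 and 21.0 CPM in controls 3, 4, 11 and 13 and at 24.2 to 34.2 CPM in STAT3 KO, and here control 3, not control 4 or 13, was lowest. Its log2 fold change was 0.33 ± 0.11 (SE; exact permutation p = 0.0263). Dnah6 and Dnah10, heavy chains of the same class, and Dnali1, a light intermediate chain, varied far more, from 1.58 to 21.0, 1.36 to 11.3 and 0.575 to 8.75 CPM over the 12 libraries. Their fold changes (0.87, 0.89 and 0.85) were among the larger ones but none had an unadjusted edgeR p under 0.05.

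Dnah7a and Dnah7b are near copies of each other on chromosome 1. Of the 75-base stretches of their longest transcripts, 27.8% and 34.3% also occurred in another gene, chiefly Dnah7b for Dnah7a and Dnah7c for Dnah7b, so their counts are uncertain. Dnah7a was scarce, at 0.898 to 1.53 CPM in controls and 1.32 to 2.94 CPM in STAT3 KO. Dnah7b was at 17.3, 15.0, 16.2 and 20.1 CPM in controls 3, 4, 11 and 13 and at 17.6 to 21.1 CPM in STAT3 KO. Control 13, low for most members, was thus the highest control for Dnah7b, and the log2 fold change was 0.15 ± 0.07 (SE).

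Zmynd10, a cytoplasmic factor that helps preassemble the arms, and Dynlrb2, a roadblock light chain, had log2 fold changes of 0.68 and 0.76. Dynlrb2 was at 1.84, 1.08, 3.28 and 1.03 CPM in controls 3, 4, 11 and 13 and at 1.59 to 4.87 CPM in STAT3 KO (median 3.11). Both had an unadjusted p under 0.05 and both overlapped between genotypes.

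All 3 radial spoke head genes had an unadjusted p under 0.05. Rsph1 had 5.00, 2.48, 7.21 and 3.12 CPM in controls 3, 4, 11 and 13. In STAT3 KO it ran from 5.33 to 11.4 CPM (median 8.16), and 6 of 8 values lay above every control. With a log2 fold change of 0.86 ± 0.27 (SE; exact permutation p = 0.0101, unadjusted edgeR p = 0.00522, adjusted p = 0.615), Rsph1 had the second smallest unadjusted p of the members. Rsph4a showed 0.61 ± 0.27, and Rsph9, which varied little, 0.27 ± 0.10.

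**Figure D3:**
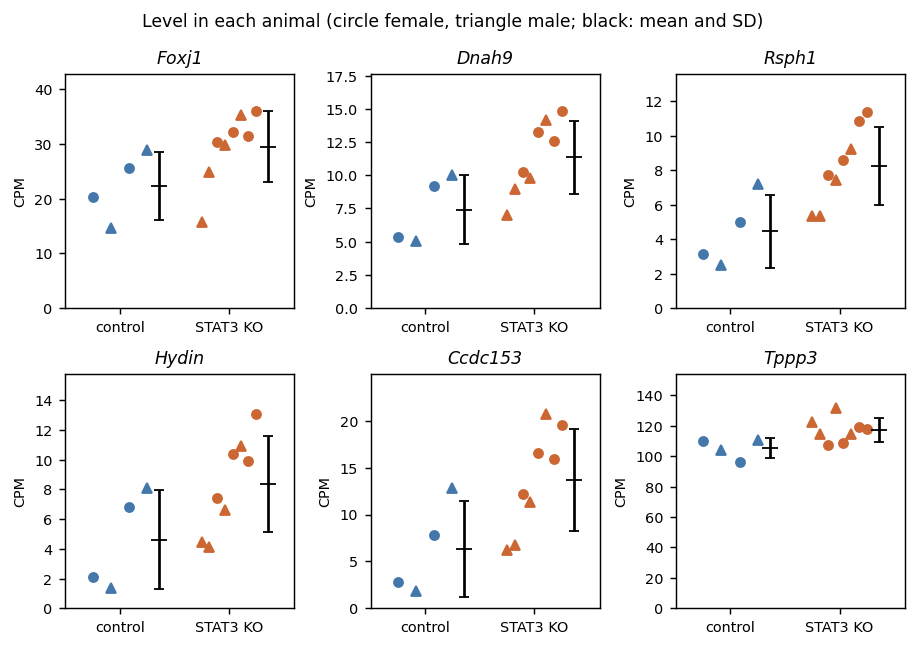
CPM of 6 motile cilia genes in each animal (blue control, orange STAT3 KO, circles female, triangles male; black marks the mean and SD). Controls 4 and 13 were the lowest controls for Foxj1, Dnah9, Rsph1, Hydin and Ccdc153, control 11 lay inside the STAT3 KO range in all 6 panels, and Tppp3 stayed between 96.5 and 132 CPM.

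The central apparatus class, 3 genes, had the largest median log2 fold change of the classes, 1.10. Hydin, a very large protein of the central pair, was at 6.84, 1.40, 8.09 and 2.13 CPM in controls 3, 4, 11 and 13 and at 4.12 to 13.1 CPM in STAT3 KO (median 8.67). The log2 fold change of Hydin was 0.83 with a 95% interval of -0.04 to 1.70, and it was 0.53 without control 4 and 1.25 without control 11. Spag16 had the largest fold change of the members, 1.17 ± 0.41 (SE, exact permutation p = 0.0202, edgeR adjusted p = 0.615). It was at 1.55, 0.431, 2.71 and 0.615 CPM in controls 3, 4, 11 and 13 and at 1.41 to 4.46 CPM in STAT3 KO. Across the 20 alternative fits its log2 fold change ran from 0.63 to 1.78. Spag17 had 2 counts in control 4, which is below the floor of 3 counts, so its fitted log2 fold change of 1.10 ± 0.56 (SE) depends on the prior count. It was 0.71 without control 4 and 1.80 without control 11. In the other libraries it lay between 0.287 and 4.04 CPM.

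Ccdc39 and Ccdc40 form the ruler that sets the repeat along each doublet, and Drc1 and Iqca belong to the nexin link. Drc1 had the smallest unadjusted edgeR p of all members, 0.0039 (adjusted p = 0.615; exact permutation p = 0.00808). It was at 8.10, 9.01, 9.57 and 7.42 CPM in controls 3, 4, 11 and 13 and at 9.31 to 11.8 CPM in STAT3 KO, a log2 fold change of 0.29 ± 0.09 (SE). Ccdc39 was similarly steady, at 20.1, 18.03, 20.3 and 16.9 CPM in controls and 19.6 to 26.0 CPM in STAT3 KO, with a log2 fold change of 0.23 ± 0.08 (SE), although 16.9% of its exon length overlaps Ttc14. Its partner Ccdc40 had 0.65 ± 0.26 and Iqca 0.91 ± 0.49. Across the 20 alternative fits these 2 values ran from 0.35 to 1.04 and from 0.37 to 1.75. Iqca spanned 0.359 to 6.88 CPM, a 19.2-fold range that was the widest among the 44 members above the floor in every library.

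The tektins form filaments inside the doublet, and Enkur and Mns1 are proteins of its inner wall. Tekt1 had 3.75, 2.37, 4.54 and 2.13 CPM in controls 3, 4, 11 and 13 and 3.44 to 6.56 CPM in STAT3 KO, a log2 fold change of 0.65 ± 0.22 (SE; exact permutation p = 0.0283). Mns1 stood at 2.91, 1.26, 2.14 and 1.27 CPM in controls and at 1.98 to 5.18 CPM in STAT3 KO (median 3.56). Its log2 fold change was 0.84 ± 0.27 (SE; exact permutation p = 0.0182), and 53.0% of its annotated exon length overlaps Tex9, so reads of the 2 genes may be mixed. Tekt2 broke the pattern: its lowest control was animal 11 (1.75 CPM) and its highest was animal 13 (2.79 CPM), and the log2 fold change was 0.31 ± 0.18 (SE; unadjusted p = 0.107). Tekt4 and Enkur had log2 fold changes of 0.52 and 0.83.

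Of the 11 other cilium genes, 7 had an unadjusted p under 0.05 (against 3.61% of all genes) and the median log2 fold change was 0.77. Ccdc153 and Tmem212 are markers of ependymal cells in the brain. Ccdc153 was at 7.80, 1.87, 12.9 and 2.79 CPM in controls 3, 4, 11 and 13 and at 6.20 to 20.7 CPM in STAT3 KO (median 14.04), a log2 fold change of 1.08 ± 0.43 (SE; exact permutation p = 0.0323, edgeR adjusted p = 0.615). Tmem212 went from 0.575 to 6.56 CPM in controls and from 2.45 to 8.23 CPM in STAT3 KO, with a log2 fold change of 0.99 ± 0.48 (SE). Both markers thus had the low controls 4 and 13 and the high control 11 seen in the axonemal genes. Tppp3 was at 96.5, 104, 111 and 110 CPM in controls 3, 4, 11 and 13 and at 108 to 132 CPM in STAT3 KO, a log2 fold change of 0.13 ± 0.05 (SE; exact permutation p = 0.0444, edgeR adjusted p = 0.615). The remaining 8 (Ak7, Adgb, Ccdc113, Stk33, Meig1, Lrriq1, Cdhr3 and Mak) had log2 fold changes between 0.30 and 0.94.

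The members differed between animals far more than most genes. The biological coefficient of variation (BCV, the square root of edgeR's dispersion, or the spread between animals of a genotype beyond counting error) had a median of 0.28 over the members and of 0.08 over all genes. Only 3.79% of all genes exceeded the members' median. BCV was smallest for Tppp3 (0.07) and largest for Spag17 (0.63), and 2 members were under the median of all genes. The members with the wider spread also had the larger fold changes: the 13 with a BCV of 0.4 or more had a median log2 fold change of 0.93, and the 7 under 0.13 had 0.23 (Spearman rho 0.91 across the 45 genes, which share their libraries).

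**Figure D4:**
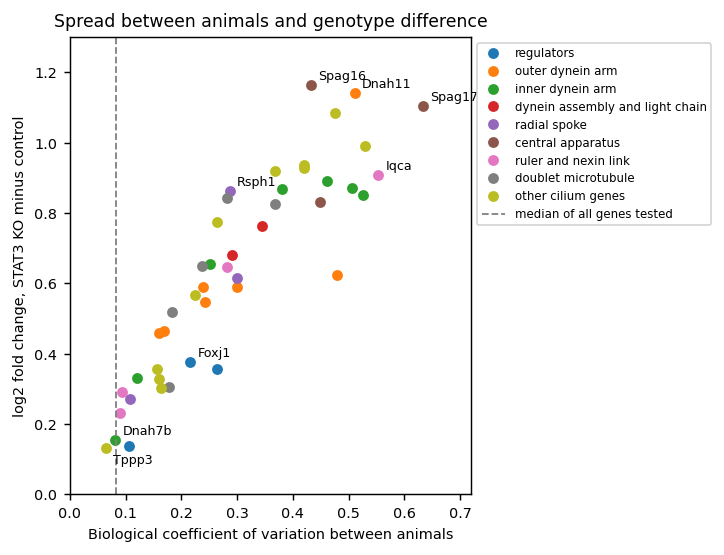
Biological coefficient of variation between animals (horizontal) against the log2 fold change between genotypes (vertical) for the 45 motile cilia genes, coloured by role. The points climb from Tppp3 and Dnah7b at the lower left to Dnah11, Spag16 and Spag17 at the upper right, and nearly all lie right of the dashed line, the median of all genes tested (0.08).

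Each genotype held as many females as males, so sex was compared in a fit with genotype. In 40 of 45 members the level was lower in males, with a median log2 difference, male minus female, of -0.21, beside 50.4% of all genes below 0. edgeR called 0 members (background 0.0841% of genes called), DESeq2 called 0, and 3 had an unadjusted p under 0.05 (background 7.2%): Tekt2 at -0.39 ± 0.14 (SE; adjusted p = 0.639), Dnah7b at -0.14 ± 0.06 and Mns1 at -0.49 ± 0.22.

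The genotype difference was fitted in each sex as well. Its median over the members was 0.95 in females, with 2 controls and 4 STAT3 KO, and 0.32 in males, with the same numbers. The interaction term was below 0 for 42 of 45 members and above 0 for 3, beside 50.02% of all genes above 0 (median of the members -0.59), and again 0 were called by edgeR (background 0% of genes called) or by DESeq2. An unadjusted p under 0.05 was reached by 2 members (background 5.49%), Dnah1 at -0.54 ± 0.17 (SE; adjusted p = 0.898) and Rsph9 at -0.46 ± 0.15, followed by Dynlrb2 at -1.24 ± 0.58 (SE; edgeR adjusted p = 0.912). In males the 2 controls were animal 4, among the lowest for most members, and animal 11, the highest control for most members. Their median deviations from the gene means were -0.92 and 0.23, and those of the female controls 3 and 13 were -0.15 and -0.97. The male pair was not wide for every member, with Rsph9 at 10.7 and 11.8 CPM in animals 4 and 11. Whether the larger female difference comes from sex or from these single animals was not tested.

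Other cilium genes were taken from a list of 107 symbols, of which 84 were matched and 81 tested. 76 of the 81 had a higher fitted level in STAT3 KO (against 49.4% of all genes), the median log2 fold change was 0.53, 43 had an unadjusted p under 0.05 with a higher STAT3 KO level (against 3.61% of all genes), and edgeR and DESeq2 called 0. The summed level was 332, 257, 394 and 259 CPM in controls 3, 4, 11 and 13 and 319 to 465 CPM in STAT3 KO, the same order of controls as for the members. Ccdc37, a cilium protein with the smallest unadjusted p of that list, had a log2 fold change of 0.77 ± 0.21 (SE; exact permutation p = 0.0121, edgeR adjusted p = 0.615). Gas8, a nexin link subunit with the highest mean CPM of that list, was at 24.7 ± 0.545 CPM in controls (SD, n = 4) and 25.9 ± 1.45 CPM in STAT3 KO (SD, n = 8).

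**Figure D5:**
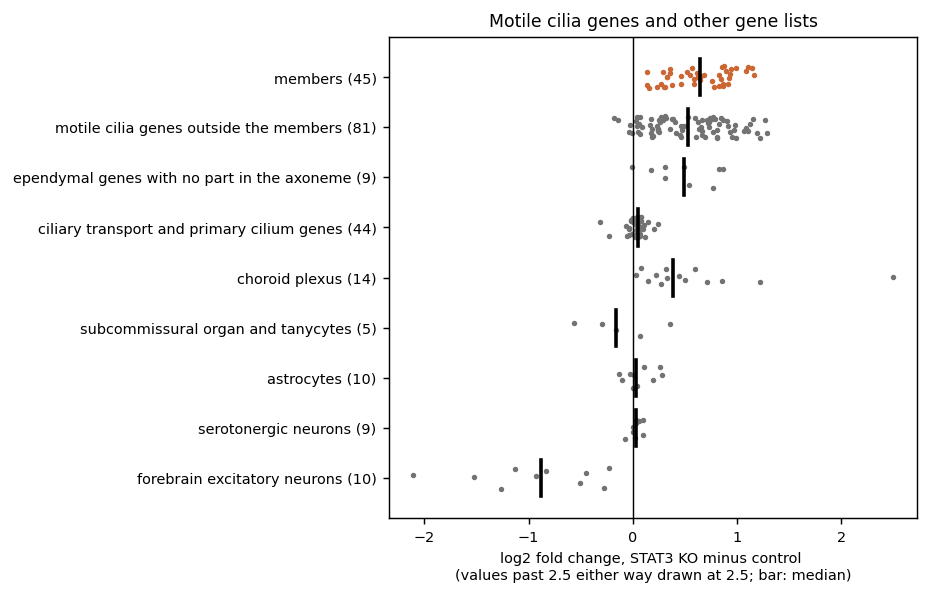
Log2 fold change, STAT3 KO minus control, of each tested gene in the motile cilia set (orange) and in 8 other gene lists (grey), with a black bar at the median and the number of genes tested in parentheses. The 45 members (median 0.65), the other motile cilia genes (0.53) and the ependymal genes with no part in the axoneme (0.49) lie mostly right of 0, while the ciliary transport genes centre on 0.05.

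Genes shared with the immotile primary cilium, which most brain cells carry, were compared as well. Of 44 intraflagellar transport, transition zone and signalling genes, 32 were higher in STAT3 KO with a median log2 fold change of 0.05. An unadjusted p under 0.05 was reached by 3 with a higher STAT3 KO level and 1 with a lower level, against 3.61% and 4.05% of all genes. Their summed level was 2227 to 2282 CPM in controls and 2266 to 2366 CPM in STAT3 KO. Dync2li1, a light intermediate chain of the retrograde transport motor, had 0.24 ± 0.06 (SE, edgeR adjusted p = 0.615). Every STAT3 KO value of Dync2li1 lay above every control (background 0.362% of genes). Kifap3, the adaptor of the anterograde motor, had -0.06 ± 0.03.

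Ependymal genes with no part in the axoneme were compared beside them. Of 9 such genes 8 had a higher fitted level in STAT3 KO, with a median log2 fold change of 0.49, and 7 had an unadjusted edgeR p under 0.05 with a higher STAT3 KO level, against 3.61% of all genes. The exact permutation test gave such a p for 4 of the 9, against 3.37% of all genes. Nnat, S100b and Pltp were at 105 CPM or more in every library, whereas Rarres2 and Mia were at 20.3 CPM or less. The part of other cell types in these levels was not tested. Vim, an intermediate filament protein of ependymal cells, tanycytes and some astrocytes and vessels, was at 37.1, 34.5, 36.7 and 38.4 CPM in controls 3, 4, 11 and 13 and at 38.8 to 55.5 CPM in STAT3 KO, so the groups did not overlap (background 0.362% of genes). Its log2 fold change was 0.31 ± 0.08 (SE; exact permutation p = 0.0101, edgeR adjusted p = 0.615). S100b, which astrocytes and oligodendrocytes also express, had -0.01 ± 0.05.

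Lists for neighbouring cell types gave the following values, and their part in the differences above was not tested. Choroid plexus genes were all detected, summing to 51.2 to 63.8 CPM in controls and 56.7 to 290 CPM in STAT3 KO, where the upper end came from animals 8 and 16. All 14 tested had a higher fitted level in STAT3 KO (median 0.38), and F5 had 0.71 ± 0.28 (SE). Without STAT3 KO 8 and 16 the count was 11 of 14 (median 0.16), and the highest STAT3 KO sum was 67.1 CPM. The motile cilia sums of these 2 animals were 365 and 446 CPM. The 10 astrocyte genes summed to 4280 to 4553 CPM in controls and 4205 to 4860 CPM in STAT3 KO (median log2 fold change 0.03, Slc1a2 -0.13, Ndrg2 0.10). The 9 serotonergic neuron genes summed to 1531 to 1926 and 1406 to 2079 CPM (median 0.03, Gata2 0.09, Tph2 0.05). Of 6 genes for tanycytes and the subcommissural organ, 5 were tested and Rax was at 0 in 3 libraries. Their sums were 138 to 157 CPM in controls and 132 to 154 CPM in STAT3 KO, and Col25a1 supplied 88.3 to 121 CPM of each. Of the 5 tested genes, 2 were higher and 3 lower in STAT3 KO (median log2 fold change -0.16), with Col25a1 at 0.07. Dio2 was lower in every STAT3 KO animal than in any control (background 0.129% of genes). Its log2 fold change was -0.56 ± 0.14 (SE, edgeR adjusted p = 0.615). Sspo was at 2.41 to 3.53 CPM in controls and 2.59 to 5.00 CPM in STAT3 KO. All 10 forebrain genes had a lower fitted level in STAT3 KO (median -0.88, Tbr1 -2.11, Camk2a -0.45), in a comparison that includes the sum of 942 CPM in control 4. Controls 3, 11 and 13 summed to 188 to 236 CPM and the STAT3 KO animals to 214 to 338 CPM. Outside control 4 these sums thus do not show a lower level in STAT3 KO.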

How the data were processed

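DR tissue of 12 mice was sequenced as 75 bp single reads from a library kit that does not keep strand. The deposited values are whole-number counts per gene, made by the authors with STAR 2.5.0b on mm10, and DESeq2 1.6.3 is named in the submitters' notes. The counter, its annotation and its strand setting are not given in the sources used here. Rows without a gene (13.9 to 15.8% of a library) were left out, after which 24421 gene rows remained.

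CPM was computed over all gene rows. Differences were fitted with edgeR 4.0.16 (R 4.3.3; TMM factors 0.985 to 1.01, filterByExpr by genotype with a minimum count of 10, quasi-likelihood test, Benjamini-Hochberg over 15453 genes, threshold 0.05), and the log2 fold changes come from that fit. Intervals are at 95% and all tests were two-sided. Animals are the replicates. With 495 splits of 4 and 8 animals, the smallest possible exact permutation p is 0.00202. Alternatives were RLE factors, 2 other filters, DESeq2 1.42.0, sex as a covariate, leaving out each animal, leaving out STAT3 KO 8 and 16, each sex alone, and another length. Scripts were tested on simulated data.

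Gene lengths and positions were taken from GENCODE vM21 and promoters from RefSeq, both on GRCm38 (mm10). Counts limit precision to counting error at the low end, and the 4 controls limit it elsewhere. The members and all lists were chosen with earlier results of these data known. The text names 18 chosen members (Dnah12 among them, not analysed here), the 5 with the smallest unadjusted p for genotype and 3 each for sex and interaction, those with extreme level or spread, Stat3, and for each other list the gene with the smallest p and that with the highest mean. Other members appear as class examples, and Rarres2, Mia and Rax as marker checks.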

Additional observations from a re-analysis of the deposited data

Results flagged for a closer look

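In control 4, the summed level of the 10 forebrain excitatory neuron genes was 942 CPM, set apart from the other 3 controls, whose highest value was 236 and lowest 188 CPM. The gap was 0.936 of the range of the group. This was the only value set apart among 130 groups of values examined (each member, each list sum and Stat3, in each genotype), and chance would set apart about 6.5. The same library had the lowest level of 28 of the 45 motile cilia genes, but its values for the members were not set apart by this measure. Control 13 was also low for most members.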

How the results depend on the processing

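With RLE factors, either other filter, DESeq2 or sex as a covariate, the median log2 fold change of the members was 0.63 to 0.65 and the number of members called stayed at 0. The filter of 10 counts in every library tested 43 members, all higher in STAT3 KO. Leaving out each animal in turn gave a median of 0.47 to 0.91, 45 to 45 members higher, 0 to 0 called for genotype, sex or interaction, and 11 to 42 members with an unadjusted p under 0.05, beside 2.497% to 5.18% of all genes. Males alone reversed Rfx3, to -0.0037, a difference of about 0. Over all genes DESeq2 called 6 and the fit without control 4 called 1. No paired analysis was possible because the animal numbers are not shared between genotypes. The 4 controls limit the precision of every genotype value, and low counts in control 4 limit Spag17 and Armc4 as well.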
